A study of Danio rerio with 2 samples.

Results

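The accessible regions described here lay near the ends of chromosomes in a pair of zebrafish melanoma lines called zcrest 1 and zcrest 2. A region was counted as an end region when its summit, the position of highest read overlap, lay in the first 1 Mb of a chromosome or within 1 Mb of the last position that any region of either line reached on it. Chromosomes 1 to 25 were used except chromosome 4, which gave 48 ends and 48 Mb. Of the 63335 regions called in zcrest 1, 3034 were end regions, and of the 53132 called in zcrest 2, 2531 were. They were set against the interior, which held the 48606 regions of zcrest 1 and the 40754 of zcrest 2 whose summits lay more than 5 Mb from both ends. The positions alone chose the regions, so their density, width, strength and overlap were free to vary.

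The assay was ATAC-seq, which reads out open DNA from the sites where a transposase can cut and add adapters. Each line was represented by 1 library made from 50000 cells. The genotype labels name p53, BRAF and Na (not expanded here), the reporter crestin:EGFP and MiniCoopR alone in both lines, and both had been passaged more than 20 times. Crestin is expressed in the zebrafish neural crest, the embryonic source of melanocytes. MiniCoopR is a rescue vector that carries mitfa, the melanocyte master regulator. All comparisons are therefore between 2 long-passaged cultures with no replicate, and no test between the lines was possible. Positions are in the build Zv9 and no gene is named.

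Chromosomes end in telomeres, arrays of a short repeated sequence that protect the end from being treated as a break, and the stretches next to them, the subtelomeres, are often rich in repeats and in recent duplications. In yeast, genes placed beside a telomere can be silenced by chromatin that spreads from it. In zebrafish, crossing over in male meiosis is concentrated towards chromosome ends. Whether chromatin near the ends was open to the same degree as elsewhere, and to the same degree in both lines, is the question addressed by these comparisons.

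Accessible regions were denser near chromosome ends than in the interior, to nearly the same degree in both lines. In zcrest 1 there were 63.2 regions per Mb in the ends (95% exact Poisson interval 61.0 to 65.5) and 46.1 in the interior (45.7 to 46.5), a ratio of 1.37 (1.32 to 1.42). In zcrest 2 there were 52.7 per Mb in the ends (50.7 to 54.8) and 38.6 in the interior (38.3 to 39.0), a ratio of 1.36 (1.31 to 1.42). The end and interior densities of a line come from the same library and threshold. The intervals cover counting error only, and neighbouring regions are not independent. Counted in bases, end regions covered 29.0 kb per Mb in zcrest 1, against 20.3 kb in its interior, and 23.6 kb per Mb in zcrest 2, against 17.2 kb. Among strong regions, those with a -log10 q of 10 or more, the ratio was 1.29 in zcrest 1 and 1.32 in zcrest 2.

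The density rose in the last few Mb and was highest in the outermost stretch. Within 50 kb of an end it was 87.9 regions per Mb in zcrest 1 (76.5 to 100.6, from 211 regions) and 65.4 in zcrest 2 (55.6 to 76.5, from 157 regions). Between 0.05 and 0.1 Mb it was 70.8 and 57.5 per Mb. Between 0.2 and 0.3 Mb it was 73.5 (66.1 to 81.6) and 63.1 (56.2 to 70.6), with intervals that overlapped those of the outermost 50 kb in both lines. Between 0.75 and 1 Mb it was 55.3 and 48.4. The stretch from 1 to 5 Mb, which belongs to neither group, held 52.2 regions per Mb in zcrest 1 and 43.7 in zcrest 2, between the ends and the interior of each line. The decline inward was also not smooth at the limit that defines an end. From 0.9 to 1 Mb there were 238 regions in zcrest 1 and 208 in zcrest 2, and from 1 to 1.1 Mb there were 285 and 267.

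**Figure D1:**
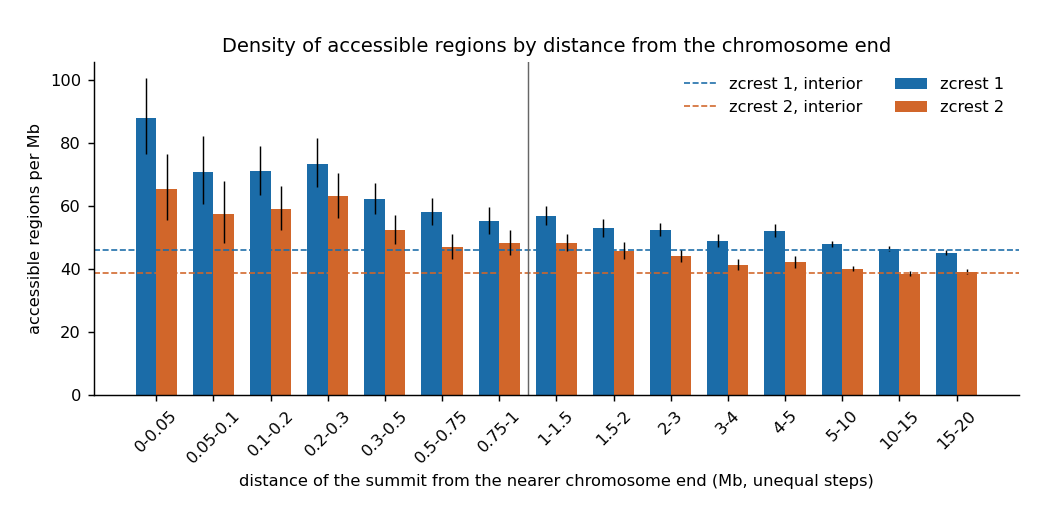
Accessible regions per Mb (y axis) in steps of distance of the summit from the nearer chromosome end (x axis, Mb, steps of unequal length) for zcrest 1 and zcrest 2. Bars are densities over 24 chromosomes with 95% exact Poisson intervals, dashed lines are the interior densities and the vertical line marks 1 Mb. The bars are highest in the outermost 50 kb, at 87.9 and 65.4 per Mb, and approach the dashed lines beyond 5 Mb.

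The far end of a chromosome was defined by the last region itself, so at least 1 summit near it was built in, whereas the start is position 1 of the assembly. The starts showed the same excess. They held 61.4 regions per Mb in zcrest 1 and 51.6 in zcrest 2, and the far ends held 65.0 and 53.9. In the first 50 kb, where no region is built in, the starts held 83.3 regions per Mb in zcrest 1 (67.8 to 101.4) and 67.5 in zcrest 2 (53.6 to 83.9). At the far ends of zcrest 2 the step from 0.1 to 0.2 Mb, with 67.1 per Mb, lay above the outermost 50 kb, with 63.3.

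Chromosome by chromosome, the ends were the denser part in all 24 chromosomes of zcrest 1 and in 21 of 24 in zcrest 2. In zcrest 1 the ratio of end to interior density ran from 1.07 on chromosome 20 to 1.97 on chromosome 2, with a median of 1.35. On chromosome 2 the 2 ends together held 97.5 regions per Mb and the interior 49.4. In zcrest 2 the ratio ran from 0.733 on chromosome 20 to 2.06 on chromosome 9, with a median of 1.42. Chromosome 9 of zcrest 2 had 55.5 regions per Mb in its ends and 26.9 in its interior. The exceptions in zcrest 2 were chromosomes 13, 15 and 20, with 56, 21.5 and 25.5 regions per Mb in the ends and 58.4, 22.5 and 34.8 in the interior. On chromosomes 13 and 15 the deficit was small, and on chromosome 20 it was not seen in zcrest 1, where the ends held 47 regions per Mb and the interior 44.1.

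**Figure D2:**
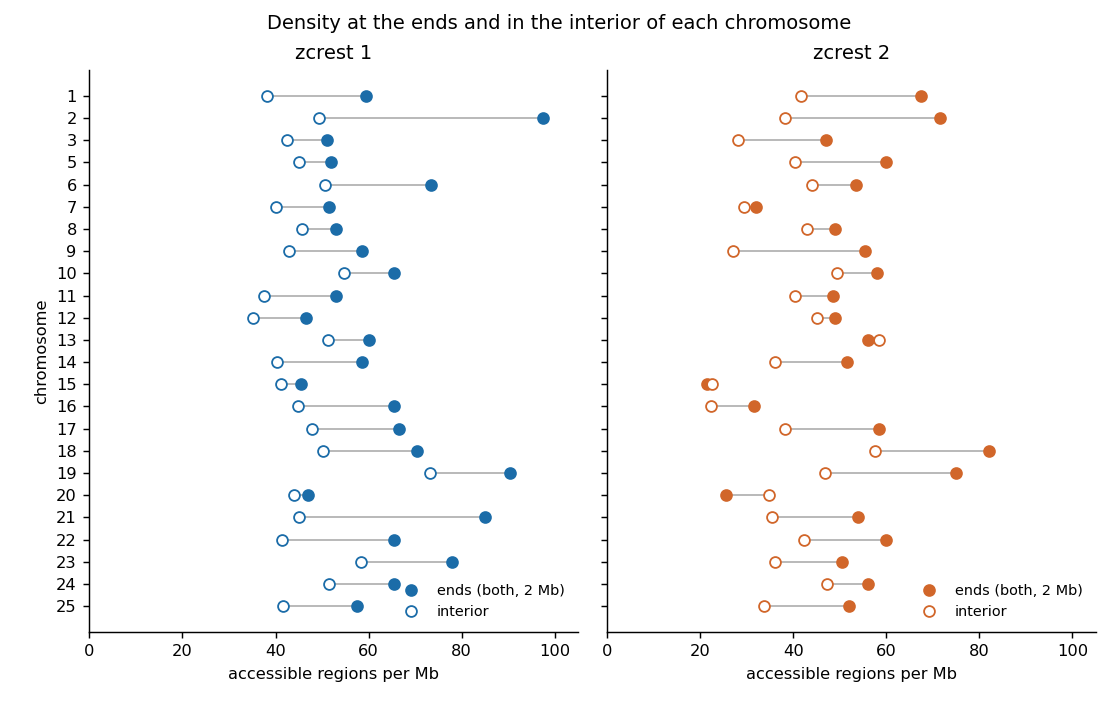
Accessible regions per Mb (x axis) on each chromosome (y axis) in zcrest 1 (left) and zcrest 2 (right). Filled points are both ends together, open points the interior of the same chromosome, and each is 1 library. The filled point lies to the right of the open point on all 24 chromosomes of zcrest 1 and on 21 of zcrest 2, with chromosome 20 of zcrest 2 furthest the other way.

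Taken singly, 44 of the 48 ends in zcrest 1 and 40 in zcrest 2 were denser than the interior of their own chromosome, and 38 were denser in both lines. Only the start of chromosome 7 and the far end of chromosome 20 were sparser in both. An excess of at least 1.5 times was found at 14 ends in zcrest 1, at 17 in zcrest 2 and at 7 in both lines. Those 7 were the starts of chromosomes 2, 9, 22 and 25 and the far ends of chromosomes 1, 2 and 21. Only 1 end in zcrest 1 and 3 in zcrest 2 passed 2 times the interior, and none did so in both lines.

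Accessible regions were found close to the start of most assembled chromosomes. The density of the starts by itself makes such distances short, and no expected distance was worked out. The first summit lay within 50 kb of position 1 on 23 of 24 chromosomes in zcrest 1 and on 23 in zcrest 2, at a median of 8.12 kb in zcrest 1 and 13.1 kb in zcrest 2. The nearest was on chromosome 21 in both lines, 0.528 kb from the start in zcrest 1 and 0.451 kb in zcrest 2. On 7 chromosomes the first summits of both lines lay within 100 bp of each other, so both lists began with the same region there. Chromosome 7 was the exception in zcrest 1, with no summit before 252.2 kb, where zcrest 2 had its first summit at 27.5 kb. At the far ends, the last region came from zcrest 1 on 17 chromosomes and from zcrest 2 on 7, and the last regions of both lines ended a median of 5.07 kb and at most 68.3 kb apart.

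The 5 regions of each line with summits nearest to a far end are listed here. The 5 nearest in zcrest 1, on chromosomes 19, 12, 20, 21 and 24, had summits 0.056 to 0.148 kb from the end and 8 to 14 reads at the summit, and none overlapped a region of zcrest 2. The 5 nearest in zcrest 2, on chromosomes 23, 11, 3, 16 and 13, had 15 to 23 reads at the summit, against a median of 20 over all its end regions, and those on chromosomes 11, 16 and 13 overlapped a region of zcrest 1. A far end is placed at the last region of either line. That is the named region or, on chromosome 13, its counterpart in zcrest 1, so the nearness is a consequence of the rule. The distance of the summit then depends on the width of the region, so the choice favours narrow regions. Weaker regions were narrower on the whole. The widths were 200 to 403 bp in zcrest 1 and 212 to 469 bp in zcrest 2. The reads, the overlap and the contrast between the lines are therefore given as values only.

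End regions were close to interior regions in width and strength. The median width was 406 bp in the ends of zcrest 1 (exact binomial interval of the median 397 to 414) and 398 bp in its interior (395 to 400). In zcrest 2 it was 385 bp in the ends (374 to 395) and 391 bp in the interior (388 to 394). The intervals of ends and interior overlapped in both lines, and the signs differed. A width of at least 1 kb was reached by 3.26% of the end regions of zcrest 1 (2.66% to 3.96%) and by 1.93% of its interior regions (1.81% to 2.06%), with 2.00% over the 24 chromosomes. In zcrest 2 it was reached by 3.32% (2.66% to 4.09%) and 2.73% (2.57% to 2.89%), with 2.67% over the 24 chromosomes. The broad tail was thus fuller at the ends of zcrest 1 beyond counting error, and in zcrest 2 the intervals overlapped.

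Strength leaned slightly the other way. The median end region had 20 reads at its summit in both lines, and the median interior region 19 in zcrest 1 and 20 in zcrest 2. The fold enrichment over the local background was 5.44 in the ends and 5.83 in the interior of zcrest 1, and 4.94 and 5.08 in zcrest 2. The local background, the reads expected from the surrounding window, had a median of 2.66 in the ends and 2.20 in the interior of zcrest 1, and of 3.26 and 2.88 in zcrest 2. It was higher in the ends on 22 of 24 chromosomes in zcrest 1 and on 21 in zcrest 2. The enrichment is computed from this background, whose part in the lower values was not tested. The strong regions as defined above made up 43.8% of end regions and 46.5% of interior regions in zcrest 1 (46.1% over the 24 chromosomes), and by 40.3% and 41.7% in zcrest 2 (41.2%).

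A local background of at least 3 times the list's median was called raised. It was found at 169 end regions of zcrest 1, or 5.57% (4.78% to 6.45%), against 4.33% of interior regions and 4.14% over the 24 chromosomes. In zcrest 2 it was found at 95, or 3.75% (3.05% to 4.57%), against 3.46% and 3.28%. These regions were spread over 31 ends in zcrest 1 and 18 in zcrest 2. The far end of chromosome 2 held 20 of them in zcrest 1 and the start of chromosome 18 held 13 in zcrest 2, the most in each line. Of the 500-kb windows whose median background was raised to that degree, none in zcrest 1 and 1 in zcrest 2 touched an end, and without them the density ratios were 1.38 and 1.38.

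End regions also lay closer together. The nearest neighbouring summit was a median of 5.44 kb away in the ends of zcrest 1 and 6.55 kb in its interior, and 6.10 kb and 7.31 kb in zcrest 2. Groups of at least 5 regions, joined where neighbouring regions lay within a fixed joining distance, held 34.0% of the end regions of zcrest 1 (32.4% to 35.8%) and 22.6% of its interior regions (22.2% to 23.0%). In zcrest 2 they held 27.0% (25.3% to 28.8%) and 17.4% (17.0% to 17.8%). A higher density by itself puts more regions in such groups.

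The share of end regions found in both lines was near that of the interior when the whole outer 1 Mb was counted. Of the end regions of zcrest 1, 1695 shared 1 bp or more with a region of zcrest 2, which was 55.9% (54.1% to 57.6%), against 55.3% in the interior (54.8% to 55.7%) and 55.1% over the 24 chromosomes. Of those of zcrest 2, 1700 had a counterpart in zcrest 1, which was 67.2% (65.3% to 69.0%), against 65.6% in the interior (65.1% to 66.1%) and 65.4% over the 24 chromosomes. The difference between ends and interior was 0.588 percentage points in zcrest 1 (-1.25 to 2.42) and 1.56 in zcrest 2 (-0.37 to 3.44), and both intervals included 0. For zcrest 2 this was not stable. Leaving out chromosome 5, 9 or 17 gave 2.28 (0.32 to 4.20), 2.27 (0.31 to 4.19) and 2.18 (0.21 to 4.10), including chromosome 4 gave 2.07 (0.17 to 3.93), and leaving out chromosome 13 gave 0.84 (-1.13 to 2.77). With overlapping regions of both lines merged, the ends held 3827 regions, of which 1657 (43.3%) were found in both lines, 1339 (35.0%) in zcrest 1 alone and 831 (21.7%) in zcrest 2 alone. The interior gave 42.3%, 35.1% and 22.6%.

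Within the outer 1 Mb the overlap was not even. In the outermost 500 kb the share with a counterpart was 58.7% in zcrest 1 (56.3% to 61.1%) and 71.8% in zcrest 2 (69.3% to 74.1%), which was 3.42 and 6.18 percentage points above the interior (0.97 to 5.83 and 3.69 to 8.58). From 0.5 to 0.75 Mb the shares were 51.0% (47.2% to 54.8%) and 62.4% (58.3% to 66.4%). From 0.75 to 1 Mb they were 53.8% (50.0% to 57.7%) and 60.8% (56.7% to 64.8%). All were below the interior of the same line. The interior value lay within the interval for zcrest 2 in the first of these steps and for zcrest 1 in the second. In these steps the starts of zcrest 1 had 56.8% and 49.7%, and its far ends 45.6% and 57.8%. The highest step was 63.2% in zcrest 1, from 0.2 to 0.3 Mb, and 75.2% in zcrest 2, in the outermost 50 kb. The rise was not steady in zcrest 1, where the outermost 50 kb had 55.9%, with 62.0% at starts and 50.5% at far ends. From 0.1 to 0.2 Mb the starts of zcrest 1 had 50.0% and the far ends 63.8%. The steps of the outermost 500 kb had a median of 18 to 23 reads at the summit in zcrest 1 and 20.5 to 23 in zcrest 2, against 19 in each line from 0.5 to 1 Mb. A raised local background was found at 5.69% to 9.07% of the regions of these steps in zcrest 1 and at 3.77% to 6.52% in zcrest 2, against 3.32% to 4.15% and 1.95% to 2.24% from 0.5 to 1 Mb. Over the whole outer 1 Mb, regions with a raised background overlapped in 77.5% of cases in zcrest 1 and 83.2% in zcrest 2, and the others in 54.6% and 66.5%. The interior was split the same way, with 69.1% and 74.9% at a raised background and 54.7% and 65.3% for the others. The part of reads, background and the density of the other line in the uneven overlap was not tested. Just inside the 1-Mb limit, from 0.9 to 1 Mb, the share was 47.5% in zcrest 1 and 53.8% in zcrest 2, and just outside it, from 1 to 1.1 Mb, it was 62.8% and 67.4%.

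Sharing varied far more with strength than with position. In zcrest 1 the weakest of 10 classes of -log10 q was shared in 24.7% of end regions (20.0% to 29.9%) and 25.04% of interior regions (23.8% to 26.3%), and the strongest class in 89.1% (84.6% to 92.6%) and 88.3% (87.4% to 89.2%). In zcrest 2 the weakest class was shared in 32.0% (26.1% to 38.2%) and 27.7% (26.3% to 29.1%), and the strongest in 96.3% (92.5% to 98.5%) and 96.997% (96.4% to 97.5%). The end share was the higher in 8 of 10 classes in zcrest 1 and in 7 of 10 in zcrest 2. When the interior was given the strength classes of the end regions, its share was 54.1% in zcrest 1 and 64.7% in zcrest 2, 1.74 and 2.45 points below the ends. At equal strength class the end regions of zcrest 1 were also wider than those of its interior in 10 of 10 classes, and in zcrest 2 in 6 of 10. An equal class does not mean an equal local background, which was higher in the ends in 10 of 10 classes of both lines. Its part in the overlap and width was not tested.

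**Figure D3:**
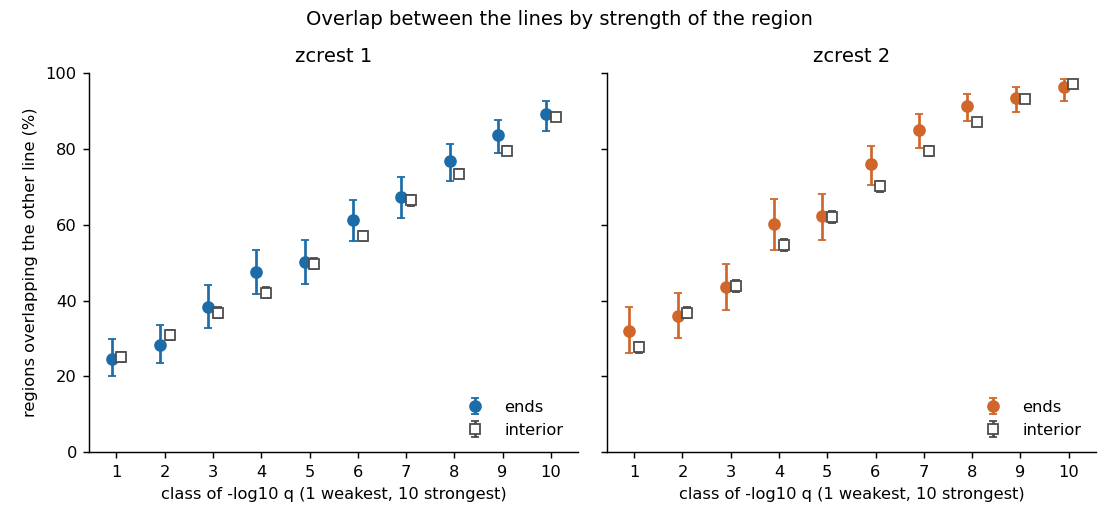
Share of accessible regions overlapping a region of the other line (y axis, percent) in 10 classes of -log10 q within each list (x axis), for zcrest 1 (left) and zcrest 2 (right). Filled points are end regions, open squares interior regions, and bars are 95% exact binomial intervals. End and interior shares climb together with strength, to 89.1% and 88.3% in the strongest class of zcrest 1 and to 96.3% and 96.997% in that of zcrest 2.

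The single ends differed more than the sum of all ends did. An end held 26 to 107 regions in zcrest 1, with a median of 63, and 13 to 86 in zcrest 2, with a median of 54.5. More regions were called in zcrest 1 at 32 ends and in zcrest 2 at 13. Across the 48 ends the counts of the lines had a Pearson correlation of 0.56 and a Spearman correlation of 0.54, and relative to the interior of the same chromosome 0.52 and 0.50. Ends of a chromosome share its interior value and all ends of a line share a library, so these are descriptions.

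The ends richest in zcrest 1 were the far end of chromosome 2, the start of chromosome 19 and the far end of chromosome 21. The far end of chromosome 2 held 107 in zcrest 1 (exact Poisson interval 87.7 to 129.3) and 70 in zcrest 2 (54.6 to 88.4). The start of chromosome 19 held 94 and 67, and the far end of chromosome 21 held 90 and 66. In zcrest 2 the richest were the far ends of chromosomes 18, 19 and 1, where zcrest 1 had 79, 87 and 63 regions and zcrest 2 had 86, 83 and 79. Chromosome 19 was thus rich at both ends, in a chromosome whose interior was also dense, with 73.1 regions per Mb in zcrest 1 and 46.9 in zcrest 2.

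The poorest ends of zcrest 1 were the starts of chromosomes 7 and 12 and the far end of chromosome 20. Those of zcrest 2 were the starts of chromosomes 15, 20 and 7, and the far end of chromosome 20 tied with the start of chromosome 7. The start of chromosome 7 was poor in both lines and held 26 in zcrest 1 (17.0 to 38.1) and 27 in zcrest 2 (17.8 to 39.3). The far end of chromosome 20 was poor in both as well, with 30 and 27. The starts of chromosomes 15 and 20 held far fewer regions in zcrest 2 than in zcrest 1, although that of chromosome 15 was below the median of the ends in zcrest 1 too. The start of chromosome 15 had 42 in zcrest 1 (30.3 to 56.8) against 13 in zcrest 2 (6.92 to 22.2), and that of chromosome 20 held 64 (49.3 to 81.7) and 24 (15.4 to 35.7). Nearly all that zcrest 2 had at the start of chromosome 20 was shared, 23 of 24 regions, while 41 of the 64 of zcrest 1 had no region of zcrest 2 within 1 kb. At the start of chromosome 15, 10 of 13 regions of zcrest 2 were shared and 30 of 42 of zcrest 1 had no counterpart within 1 kb. Over all end regions, 67.2% of those of zcrest 2 were shared and 38.9% of those of zcrest 1 had no counterpart within 1 kb. Over the 24 chromosomes these shares were 65.4% and 41.3%. These starts were picked for few regions in zcrest 2, which by itself leaves more of zcrest 1 without a counterpart.

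**Figure D4:**
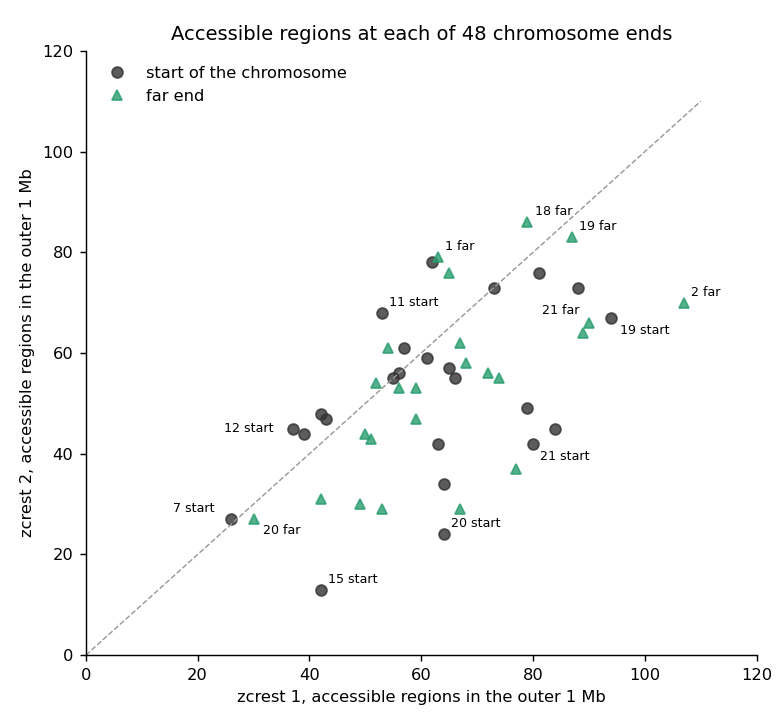
Number of accessible regions in the outer 1 Mb of each of 48 chromosome ends in zcrest 1 (x axis) and zcrest 2 (y axis). Circles are chromosome starts, triangles far ends, the dashed line marks equal numbers, and labels name the ends described in the text. The far end of chromosome 2 lies furthest right, at 107 and 70, and the starts of chromosomes 15 and 20 lie far below the line, at 42 and 13 and at 64 and 24.

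Some ends held long stretches with no summit. The longest at an end had a median length of 78.1 kb in zcrest 1 and 89.2 kb in zcrest 2. It exceeded 150 kb at 3 ends in zcrest 1 and at 10 in zcrest 2. Stretches of the interior were not measured, so these lengths are not shown to be particular to the ends. The list of zcrest 2 is shorter, which by itself makes its empty stretches longer. From 470.1 kb to the 1-Mb limit at the start of chromosome 15, a stretch of 529.9 kb, zcrest 1 had 12 summits, 4 of them of strong regions, and zcrest 2 had none. From 27.5 to 535.1 kb at the start of chromosome 7, zcrest 1 had 4 summits and zcrest 2 had none. Other stretches were empty in both lines. From 678.2 to 916.0 kb at the start of chromosome 15 neither line had a summit. At the far end of chromosome 25 the longest empty stretch began 391.0 kb from the end in both lines and was 170.3 kb long in zcrest 1 and 170.2 kb in zcrest 2. An empty stretch means only that no region passed the threshold there, since reads between the regions were not analysed here.

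Where both lines had the same region, the number of reads at its summit was compared. In the ends 1657 regions were matched one to one, and their median summit had 25 reads in each line, against 24 in each line at 26264 matched interior regions. The ratio of zcrest 1 over zcrest 2 was taken on the log2 scale, with the median of all pairs set to 0. Its median was 0.08 in the ends (exact interval 0.0045 to 0.0825) and -0.01 in the interior (-0.02 to 0.00). The end value is that of a pair with equal reads. For starts alone the median was -0.0064 (-0.062 to 0.0825), and for far ends alone it was 0.0825 (0.051 to 0.170). A small lean towards zcrest 1 was thus seen at the far ends and not at the starts, so no shift common to all ends was shown. The limit of 1.5 times was set on this centred ratio, here and at the single ends below. Before centring the median ratio of all pairs was 0.944, so the limit is not 1.5 times in plain reads. Pairs at or past it towards zcrest 1 made up 23.1% of end pairs (21.1% to 25.2%) and 21.6% of interior pairs, with 21.7% among all pairs. Pairs at or past it towards zcrest 2 made up 14.2% (12.54% to 16.0%) and 19.3%, with 18.5% among all pairs. A smaller share of end pairs than of interior pairs thus reached 1.5 times towards zcrest 2 on the centred ratio. The intervals treat neighbouring pairs as independent, and the reads are not corrected for the local background. At end pairs the background was 1.32 times the list's median in zcrest 1 and 1.19 times in zcrest 2. At interior pairs it was 1.09 and 1.06 times, and its part was not tested. Summits lay a median of 31 bp apart in end pairs and 32 bp in interior pairs.

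The ratio differed from end to end, and partly followed the chromosome. All 48 ends had at least 10 matched pairs, and their median log2 ratios ran from -0.59 to 1.24. The end was on the same side of 0 as the interior of its own chromosome in 36 of 48 cases and within 0.3 of it in 30, and 9 ends differed from it by more than 0.5. Across the 48 ends the Spearman correlation with the interior of the same chromosome was 0.56. Both ends of a chromosome are set against the same interior value, and no p is given.

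The 3 ends furthest towards zcrest 1 were the starts of chromosomes 20, 15 and 21. On chromosome 20 the 21 matched regions of the start had 10 to 71 reads in zcrest 1, with a median of 43, and 12 to 32 in zcrest 2, with a median of 20. Their median log2 ratio was 1.24, a ratio of 2.36, where the interior of chromosome 20 lay at 0.02, and 18 of the 21 passed 1.5 times towards zcrest 1 and 1 towards zcrest 2. The lines overlapped in range but nearly all pairs went one way.

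On chromosome 21 the 29 matched regions of the start had a median of 33 reads in zcrest 1 (10 to 103) and 18 in zcrest 2 (9 to 49), a log2 ratio of 0.97 against 0.08 in the interior, and 20 of 29 passed 1.5 times towards zcrest 1 and 0 towards zcrest 2. The start of chromosome 15 gave only 10 pairs, with a median of 31.5 reads in zcrest 1 (13 to 101) and 17 in zcrest 2 (10 to 111), a log2 ratio of 1.14 against 0.34 in the interior. These ends were thus higher in zcrest 1 than the chromosomes they belong to in the summit reads of shared regions. As given above for chromosomes 15 and 20, they were also higher in the number of regions. The start of chromosome 21 held 80 regions in zcrest 1 and 42 in zcrest 2. Summit reads are not corrected for the local background, which differed the same way. At the starts of chromosomes 20, 21 and 15 its median was 1.15, 1.47 and 1.06 times the list's median in zcrest 1. In zcrest 2 it was 0.694, 0.703 and 0.694 times. The value 0.694 is the genome-wide background of zcrest 2, the lowest possible, and 0.703 lies next to it. The part of the background in the read ratios was not tested.

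The ratios of these 3 ends were lower in the following Mb. The ends were picked for the highest value in the first Mb, and a lower value next to it follows in part from that choice. For chromosome 20 the median log2 ratio was 1.24 in the first Mb, 1.08 in the second, 0.57 in the third, 0.48 in the fourth and 0.55 in the fifth, from 17 to 21 pairs each. For chromosome 21 it was 0.97, 0.64, 0.02, -0.17 and 0.18, from 25 to 29 pairs each. For chromosome 15 it was 1.14, 0.57, 0.24, 0.15 and 0.18, but the first 3 of these steps had only 10 to 12 pairs. On chromosome 20 the later steps still lay above the interior, at 0.02. Over 1 to 5 Mb together the ratio was 0.68, 0.17 and 0.31 at the starts of chromosomes 20, 21 and 15, from 80, 108 and 70 pairs.

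The 3 ends furthest towards zcrest 2 were the start of chromosome 11, the far end of chromosome 18 and the start of chromosome 7. At the start of chromosome 11 the 42 matched regions had a median of 19 reads in zcrest 1 (9 to 49) and 32 in zcrest 2 (11 to 68), a log2 ratio of -0.59, and 21 passed 1.5 times towards zcrest 2 and 4 towards zcrest 1. There the neighbouring stretch went further the same way, with -0.68 from 1 to 5 Mb, and the interior lay at -0.29. At the far end of chromosome 18 the 54 matched regions had a median of 23.5 reads in zcrest 1 and 32.5 in zcrest 2, a log2 ratio of -0.59, and the stretch from 1 to 5 Mb lay at -0.22. At the start of chromosome 7 the 10 pairs lay at -0.57, with all 10 below the median ratio. Of these, 4 passed 1.5 times towards zcrest 2 and 0 towards zcrest 1. The stretch from 1 to 5 Mb lay at -0.29 from 47 pairs. The far end of the same chromosome lay at 0.69 from 33 pairs, and its stretch from 1 to 5 Mb at 0.31 from 62 pairs. The interior lay at 0.08, so the ends of chromosome 7 departed from it in opposite directions. The 3 ends furthest towards zcrest 2 were picked for the lowest values, and a distance from the interior follows in part from that choice. The local background differed the same way as the reads at the 3 ends furthest towards zcrest 2. In the order named, it was 0.830, 1.13 and 0.862 times the list's median in zcrest 1. In zcrest 2 it was 1.27, 1.74 and 1.82 times, again as medians over all regions of an end, and its part was not tested.

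**Figure D5:**
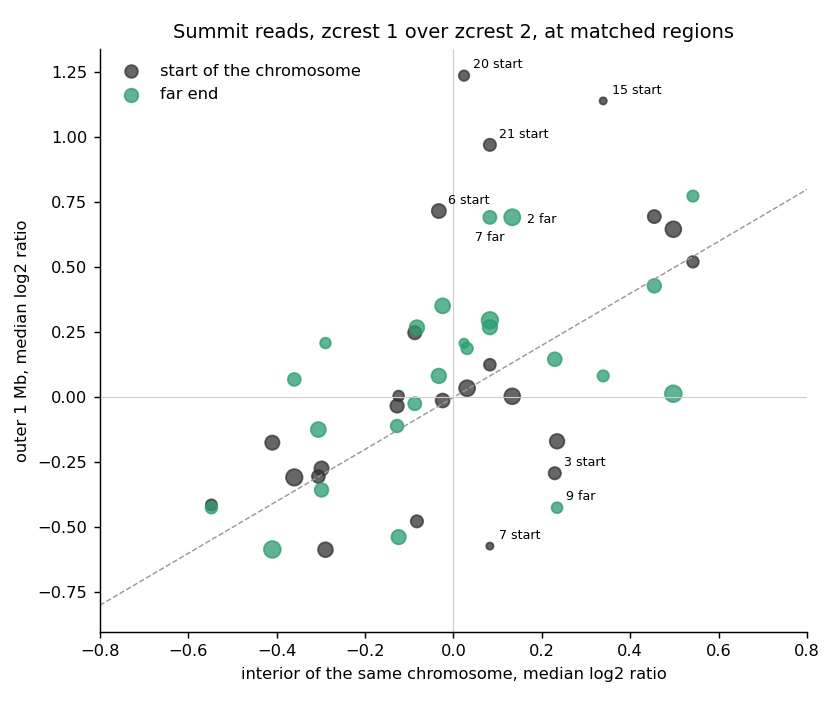
Median log2 ratio of summit reads, zcrest 1 over zcrest 2, at matched regions in the outer 1 Mb of each of 48 chromosome ends (y axis) against that of the interior of the same chromosome (x axis). Circle area grows with the number of pairs, from 10 to 54, dark circles are starts and green circles far ends, the dashed line marks equal values and labels name the 9 ends that differ from their interior by more than 0.5. The starts of chromosomes 20, 15 and 21 stand highest, at 1.24, 1.14 and 0.97.

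The strongest end regions were mostly shared, as were the interior regions of the strongest class given above. In zcrest 1 the highest -log10 q at an end was 107 on chromosome 17 at 53841247 to 53841699, 130.6 kb from the far end. It had 131 reads at the summit in zcrest 1, a 15.8-fold enrichment, and 103 in zcrest 2, a 13-fold enrichment. The region on chromosome 24 at 42967039 to 42967800, 976.9 kb from the far end, had 134 reads in zcrest 1 and 115 in zcrest 2. The region on chromosome 15 at 36913 to 37348 had 101 reads in zcrest 1 and 111 in zcrest 2, with 16.9-fold and 18.6-fold enrichment. These 3 were among the 5 strongest end regions of both lines. The last of them lay 37.2 kb from a start at which zcrest 2 had 13 regions in all.

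The other regions among the 5 strongest of zcrest 1 lay on chromosome 8 at 451383 to 452449, with 138 reads in zcrest 1 and 111 in zcrest 2, and on chromosome 23 at 456760 to 457411, with 108 and 39. The region on chromosome 23 had a -log10 q of 80.2 in zcrest 1 and 22.5 in zcrest 2. In zcrest 2 the highest was on chromosome 2 at 135016 to 135777, 135.3 kb from the start, with 108 reads in zcrest 1 and 216 in zcrest 2. The last was on chromosome 23 at 46205857 to 46206428, with 81 reads in zcrest 1 and 103 in zcrest 2.

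Of all end regions of zcrest 1, whatever their strength, 1181 had no region of zcrest 2 within 1 kb and are called private here, or 38.9% (37.2% to 40.7%), against 41.2% in the interior and 41.3% over the 24 chromosomes. Of those of zcrest 2, 687 were, or 27.1% (25.4% to 28.9%), against 30.2% and 30.3%. The other line was itself denser in the ends, which by itself puts a neighbour within 1 kb more often, so these shares are given as values only. The strongest private to zcrest 1 was on chromosome 23 at 742489 to 743230, with 104 reads and a 12.47-fold enrichment, 25.4 kb from the nearest region of zcrest 2. The next were at the starts of chromosomes 18, 2 and 17 and the far end of chromosome 13, with 91, 72, 67 and 86 reads.

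The strongest private to zcrest 2 was on chromosome 13 at 53793102 to 53793925, with 95 reads and an 11.8-fold enrichment. It lay 5.29 kb from the strongest region private to zcrest 1 on that chromosome end, at 53786911 to 53787815, which had 86 reads and an 11.3-fold enrichment. At the far end of chromosome 13, about 0.3 Mb from the last region, each line thus had a strong region that the other lacked, side by side. The next of zcrest 2 were at the far ends of chromosomes 18, 1 and 23 and at the start of chromosome 6. They had 60, 58, 39 and 55 reads at the summit, and the last was 1224 bp wide. The region on chromosome 1, at 59365086 to 59365987, lay furthest from any region of zcrest 1, at 88.9 kb.

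The 5 widest end regions of each line all overlapped a region of the other line. Wide regions were mostly strong, and strong regions were mostly shared in the interior too. The strongest class of interior regions had the widest median, 660 bp in zcrest 1 and 705.5 bp in zcrest 2. It was shared in 88.3% and 96.997% of cases. Overlap of the widest interior regions was not counted, so this overlap is not shown to be particular to the ends. In zcrest 1 the widest was on chromosome 19 at 49814854 to 49816444, 1591 bp, with 111 reads in zcrest 1 and 62 in zcrest 2. The widest of zcrest 2, on chromosome 22 at 237604 to 239461, measured 1004 bp in zcrest 1 and 1858 bp in zcrest 2. The region on chromosome 10 at 627658 to 629079 in zcrest 1 was among the 5 widest in both lines, 1422 bp and 1451 bp, with 59 and 72 reads. The region on chromosome 18 at 49681 to 51234 stood apart. It was 1554 bp wide in zcrest 1 but had a 2.39-fold enrichment only, on a local background 17.5 times the list's median, and in zcrest 2 it matched a region of 472 bp.

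That region belonged to a crowded stretch close to the start of chromosome 18. In zcrest 2 a group of 12 regions lay at 29610 to 52599, 29.7 to 52.4 kb from the start, with a median of 93.5 reads at the summit and a local background 12.9 times the list's median. Of these, 10 overlapped a region of zcrest 1 and 0 were without one within 1 kb. The other groups with most regions did not share this background. At the far end of chromosome 3, at 62897216 to 63000260, zcrest 1 had 13 regions and zcrest 2 had 14, on a background 0.706 times its median. At the start of chromosome 11, at 759302 to 795310, zcrest 1 had 8 and zcrest 2 had 11, at 1.91 times.

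In zcrest 1 the groups with most end regions lay on chromosomes 7, 19 and 23. The group at the far end of chromosome 7, at 76814661 to 76871718, held 15 regions in zcrest 1, on a background 3.03 times the median, and 10 in zcrest 2. The group at the start of chromosome 19, at 441838 to 531322, held 15 in zcrest 1 and 5 in zcrest 2, and that at the far end of chromosome 23, at 45804539 to 45891046, held 14 and 5. In the groups on chromosomes 7, 19 and 23, 3 of 15, 10 of 15 and 9 of 14 regions of zcrest 1 had no counterpart within 1 kb. The share was 38.9% over all end regions of zcrest 1 and 41.3% over the 24 chromosomes. Groups picked for many regions in a line tend to hold fewer in the other, and these differences were not tested.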

How the data were processed

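ATAC-seq peak lists of 2 zebrafish melanoma lines, 1 library each, were used. Peaks were called per library with MACS2 2.1.0 on Zv9, per the submitters' processing notes and the peak names. Not given in the sources used here are the aligner, duplicate handling, read shift and depth. The deposited lists hold positions, a score (10 times the -log10 q), the fold enrichment (the authors' ratio of summit pileup to local background, 1 added to each), a -log10 p and a -log10 q, lowest at 1.31 and 1.32. These values are the authors' own.

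Summit reads and local background were solved from the deposited fold enrichment and -log10 p with whole-number pileups up to 800 (Python 3.11.15, scipy 1.17.1). All 63335 and 53132 peaks were met within 0.001, and all of 4903 and 4948 simulated peaks (100%) were recovered. The genome-wide background, the lowest possible, was 1.57 and 2.01 reads.

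Chromosome length was taken as the largest peak end of both lists. Pairs were mutual best overlaps. Groups join regions within 12500 bp. Strength classes are deciles of -log10 q within a list. Intervals are 95%: exact Poisson, exact binomial, order-statistic for medians and Newcombe's for differences of shares. With 1 library per line no test was made. Regions and ends named are the 5 strongest, strongest private, widest and outermost end peaks of each line, the 3 ends with most and fewest peaks and with the highest and lowest read ratio, and the 3 largest groups. Other chromosomes, ends and stretches named, and the steps compared, were chosen after their values were seen, and the members and lists were chosen with earlier results of these data known.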

Additional observations from a re-analysis of the deposited data

Results flagged for a closer look

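The median width difference, ends minus interior, had opposite signs in the lines, but neither line showed a direction. It was 8 bp in zcrest 1 (-3 to 19) and -6 bp in zcrest 2 (-20 to 7), and it was not tested. The values of both lines were positive with ends of 500 kb (12 and 2 bp). They were also positive for strong regions, at 25 bp in zcrest 1 (6 to 51) and 19 bp in zcrest 2 (-7 to 48). With interior widths reweighted to the strength of end regions they were 17 and 1 bp. The signs stayed opposite under the other alternatives. The ends of chromosome 4, left out of the comparisons, held regions too: 84 in zcrest 1 and 63 in zcrest 2, or 42 and 31.5 per Mb, against 26.1 and 23.0 per Mb in the interior of that chromosome. Of them 47.6% and 63.5% overlapped a region of the other line, against 39.1% and 44.5% of its interior regions.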

How the results depend on the processing

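No paired analysis was possible because each line has 1 library and no result comes from a test. The density ratio stayed above 1 in both lines under all alternatives. It was 1.37 in zcrest 1 and 1.36 in zcrest 2, and became 1.51 and 1.49 with ends of 500 kb, 1.28 and 1.29 with ends of 2 Mb, 1.29 in zcrest 1 for strong regions (-log10 q of 10 or more), and 1.43 in zcrest 1 for bases covered. The overlap share of end regions, 55.9% and 67.2%, was 58.7% and 71.8% with ends of 500 kb, 64.8% in zcrest 2 with ends of 2 Mb, 73.9% in zcrest 2 for strong regions, 61.5% and 62.6% with lists of equal length, 45.8% and 55.0% with a 50% reciprocal overlap, and 41.7% and 49.98% with summits within 100 bp. The overlap difference from the interior, 0.588 and 1.56 points, was 3.42 and 6.18 with ends of 500 kb, -0.50 and -0.81 with ends of 2 Mb, and 2.76 and 2.50 for strong regions. Leaving out 1 chromosome at a time moved it between -0.15 and 0.96 in zcrest 1 and between 0.84 and 2.28 in zcrest 2. The width difference, 8 and -6 bp, was 25 and 19 bp for strong regions. The median log2 read ratio at end pairs, 0.08, was -0.0064 for starts alone, 0.08 for far ends alone and -0.0090 from the deposited fold enrichment. Without single chromosomes it lay between 0.029 and 0.092, and the density ratios between 1.34 and 1.38 in zcrest 1 and between 1.34 and 1.39 in zcrest 2. For values that moved or turned, the cause was not tested. All alternatives were planned. The largest peak end can fall short of the assembled end, and the weakest strength class, at a median of 10 and 11 summit reads in the ends, limits what a missing counterpart shows.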
